A study of Mus musculus with 12 samples.

Results

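The imprinted growth genes are 10 genes, Igf2, H19, Mest, Peg3, Plagl1, Grb10, Igf2r, Ndn, Meg3 and Peg10, found by their symbols among the 39423 genes of the count and FPKM tables. All 10 symbols were matched, and suffixed entries for second copies of Igf2r (258 counts over all libraries, 0.139% of those of Igf2r) and Meg3 (0 counts) were kept apart. The genes were selected on their levels in these same libraries, so their values are given as a description. Where a call from the test over all genes is printed for them, it is part of that description and not used as support. The cells were 3T3-L1, a mouse embryonic fibroblast line of preadipocytes that becomes fat cells under DMI, a cocktail of dexamethasone, 3-isobutyl-1-methylxanthine and insulin. All 12 libraries came from induced cells, and no library of uninduced cells was analysed here. Cells had received a control siRNA (siCtrl, labelled NC) or an siRNA against the arginine methyltransferase PRMT1 (siPRMT1, labelled KD). RNA was taken after 24 h of DMI (day 1, the stage of mitotic clonal expansion) or 72 h (day 3, differentiation), with 3 libraries in each of the 4 groups. The labels do not say that the libraries of a group came from separate cultures, so p-values measure only the spread between these libraries, which may be technical. In RNA from whole cultures, fewer cells of a type and less RNA per cell cannot be told apart.

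Genomic imprinting is the expression of a gene from only the maternal or only the paternal copy, fixed by DNA methylation laid down in the germ line. Many imprinted genes act on growth: in general, paternally expressed members such as Igf2, Mest, Peg3 and Peg10 favour it, and maternally expressed members such as H19, Igf2r, Meg3 and, in most tissues, Grb10 restrain it. Several, among them Igf2, H19 and Mest, are high in fetal tissue and silenced after birth, and Mest, Ndn and Peg3 have been studied in fat tissue. Counts per gene do not separate the parental alleles, so the values below are totals of both.

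Igf2 and H19 stand on the same strand of chromosome 7 of GRCm38, with 72621 bases between them: Igf2 at 142650768 to 142666816 and H19 at 142575530 to 142578146. Peg3 at 6703892 to 6730441 and Ndn at 62348277 to 62349928 are on chromosome 7 too. Mest, at 30733506 to 30748466, and Peg10, at 4747306 to 4760517, are on chromosome 6. The others are Plagl1 on chromosome 10 (13090788 to 13131694), Grb10 on chromosome 11 (11930499 to 12037422), Meg3 on chromosome 12 (109540996 to 109571729) and Igf2r on chromosome 17 (12682406 to 12769706). Of the 10 genes, 8 had at least 1 promoter window of 300 bases in RefSeq (GRCm38.p6), 15 windows in all. Windows of 3 genes are shown, because Igf2 and Mest were lower with siPRMT1 at day 1 while Peg3, also paternally expressed, was close to siCtrl. Each is printed 5′ to 3′ on the strand of the gene, with every CpG, the dinucleotide at which DNA is methylated, in capitals. Whether these windows carry an imprint was not tested. For Igf2, the window with the most CpG of its 4 is shown, chr7:142658755-142659054 on the minus strand. For Mest it is 1 of 3 windows, of which another starts 3 bases further on, chr6:30737800-30738099 on the plus strand, and for Peg3 its 1 window, chr7:6730370-6730669 on the minus strand.
Igf2: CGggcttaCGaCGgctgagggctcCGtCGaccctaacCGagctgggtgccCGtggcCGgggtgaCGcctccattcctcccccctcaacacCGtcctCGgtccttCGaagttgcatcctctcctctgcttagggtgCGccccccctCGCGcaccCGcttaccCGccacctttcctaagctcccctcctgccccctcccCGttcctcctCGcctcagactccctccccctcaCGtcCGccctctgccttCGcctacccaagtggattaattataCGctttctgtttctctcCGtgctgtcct
Mest: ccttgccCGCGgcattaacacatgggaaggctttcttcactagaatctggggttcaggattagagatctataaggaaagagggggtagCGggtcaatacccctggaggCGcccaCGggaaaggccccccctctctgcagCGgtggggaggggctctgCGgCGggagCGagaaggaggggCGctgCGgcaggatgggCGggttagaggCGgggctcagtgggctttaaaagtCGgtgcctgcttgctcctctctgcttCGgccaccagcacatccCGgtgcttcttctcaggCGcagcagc
Peg3: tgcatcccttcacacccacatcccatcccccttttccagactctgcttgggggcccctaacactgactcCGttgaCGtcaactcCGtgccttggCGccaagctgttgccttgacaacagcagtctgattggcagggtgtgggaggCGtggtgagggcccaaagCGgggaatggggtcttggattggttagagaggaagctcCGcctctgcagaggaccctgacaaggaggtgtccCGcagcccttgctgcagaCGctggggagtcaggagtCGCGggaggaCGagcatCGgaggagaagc
The Igf2 window held 24 CpG, chosen as its highest, with 7, 14 and 2 in its other windows. That of Mest, also chosen by CpG, held 17, with 8 and 17 in its others, and that of Peg3 held 13. The median over all 32851 windows, which were not so chosen, was 7. A relation of CpG number to the knockdown differences was not tested. Over the 15 windows, the number ran from 1, in a Meg3 window, to 45, in a Grb10 window. The letters TGCCGC, the recognition motif of the imprint-keeping zinc finger protein ZFP57, were searched on both strands. They were found in 6 of the 15 windows, in 5 genes, since both Mest windows that start 3 bases apart are among them. The share over all windows was 11.6%. Those windows were not matched for CpG, which the motif contains, so nothing is read from the difference. The Mest window printed here holds 2 matches, and the Igf2 and Peg3 windows printed here hold 0.

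An exon of H19 carries the precursor of miR-675, so its mature sequences are shown with the seed, bases 2 to 8, in capitals.
mmu-miR-675-5p: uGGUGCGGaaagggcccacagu
mmu-miR-675-3p: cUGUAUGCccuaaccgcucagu
The gene Mir675 was listed at 0 counts in all 12 libraries, which were made from messenger RNA and do not measure mature miRNAs.

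Total counts ran from 15116462 to 42357137 per library, so that 3 counts correspond to 0.198 CPM (counts scaled to the library's total) in the shallowest library and 0.0708 in the deepest. Prmt1 itself was lower with siPRMT1 at both days, from 85.8 ± 4.71 to 41.3 ± 2.61 FPKM (fragments per kilobase of gene length, scaled to the library's total; mean ± SD, n = 3) at day 1 and from 124 ± 15.1 to 67.4 ± 4.92 at day 3. Replicate 3 of siCtrl day 1 stood apart, with a root mean square log2 distance of 0.293 and 0.333 from the other 2 libraries, against 0.086 to 0.180 for the other pairs of replicates. Log2 fold changes that rest on that group are therefore given with and without it. The sum of 8 adipocyte markers was 145 to 150 FPKM in siCtrl and 110 to 123 in siPRMT1 at day 1, and 2177 to 2349 and 1699 to 1941 at day 3, with no marker at 0. The sum of 8 preadipocyte and fibroblast markers was 2593 to 2712 FPKM in siCtrl and 2272 to 2340 in siPRMT1 at day 1, and 1231 to 1413 and 1664 to 1684 at day 3, so siPRMT1 was lower at day 1 and higher at day 3. Of 6 leukocyte markers, Ptprc was at 0 in all 12 libraries, and the summed level was 1.81 to 2.58 FPKM. Endothelial markers summed to at most 0.890 FPKM. The 5 epithelial markers summed to 0.0800 to 0.210 FPKM at day 1, and at day 3 to 17.3 to 17.7 in siCtrl and 11.2 to 11.6 in siPRMT1. The 5 skeletal muscle markers, with Myod1 at 0 throughout, summed to 0.680 to 1.14 FPKM at day 1, and at day 3 to 6.35 to 6.54 in siCtrl and 3.54 to 4.03 in siPRMT1. The sum of 8 interferon response genes was 9.83 to 11.8 FPKM in siCtrl and 27.0 to 35.0 in siPRMT1 at day 1. At day 3 these sums were 3.41 to 4.58 and 5.42 to 6.32.

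The group means of the 10 genes ran from 0 to 330 FPKM. In siCtrl at day 1 Igf2r was highest, at 108 ± 7.41 FPKM (mean ± SD, n = 3), followed by Peg10 at 69.8 ± 2.02 and Ndn at 24.7. Mest (7.66), Peg3 (5.01), H19 (4.48), Grb10 (0.907) and Igf2 (0.637) came next, and only the libraries of Peg3 and H19 overlapped between neighbours. Plagl1, a zinc finger transcription factor, lay at 0.01 to 0.06 FPKM, with 1 to 10 counts per library and 66 in all. Meg3, a long noncoding RNA of the Dlk1-Dio3 domain, had 0 counts in all 12 libraries. If all its reads were counted, that allows at most 0.0708 to 0.198 CPM, for counting error only. The suffixed second entry of Meg3 has the same exon length, 12957 bases. How reads matching both entries were counted is not given in the sources used here, so 0 counts do not show that Meg3 was absent. At day 3 Peg10 was first in siCtrl, at 330 ± 0.985 FPKM, and Igf2r second at 40.0. Mest, Ndn, H19 and Igf2 followed at 18.4, 16.5, 13.4 and 11.0 FPKM, each overlapping the next. Peg3 (1.63) and Grb10 (0.627) then stood clear of each other. In siPRMT1 the order at day 1 was that of siCtrl except that Peg3 (4.98 FPKM) stood before Mest (4.44), and those 2 overlapped. In siPRMT1 at day 3, Ndn (17.4 FPKM), Mest (15.9) and H19 (14.7) overlapped their neighbours, while Igf2 (8.07) stood below H19 in every library.

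**Figure D1:**
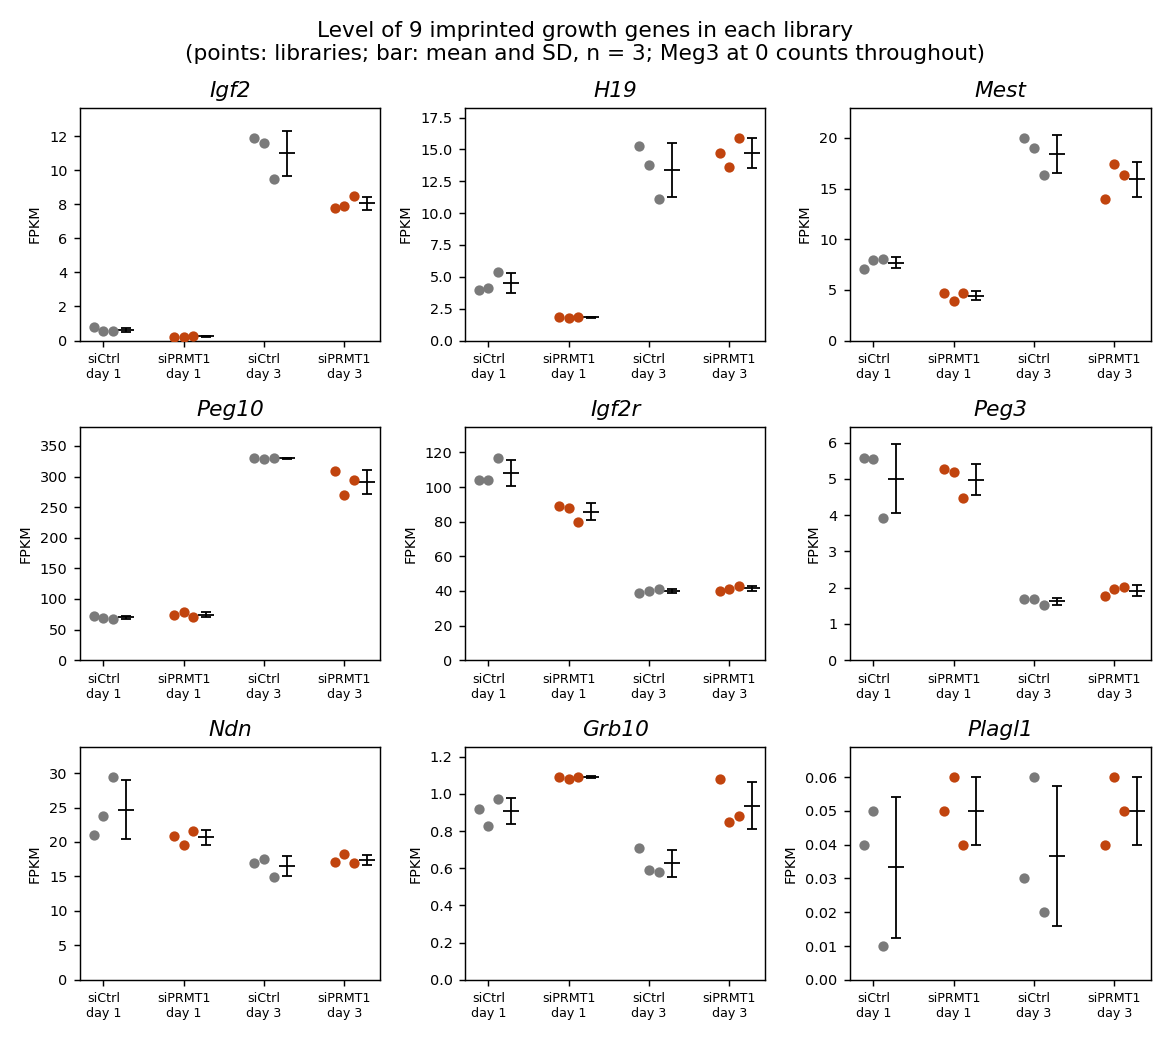
FPKM of 9 genes on linear axes starting at 0, with 1 point per library, siCtrl in grey and siPRMT1 in orange, and the mean and SD of 3 libraries beside the points. Igf2, H19 and Mest are low in siPRMT1 at day 1 and higher in all 6 libraries of day 3; Igf2r and Peg3 are lower at day 3.

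PRMT1 knockdown at day 1 went with lower levels of Igf2, H19 and Mest and with little difference in Peg10 and Peg3. A gene was called when edgeR's adjusted p was under 0.05 and its absolute log2 fold change over 0.5. Of the 8 genes that passed the filter on low counts, all but Plagl1 and Meg3, 3 were called lower and 0 higher. Over the 13689 genes tested, 1.61% were called lower and 1.95% higher. Since the genes were chosen from these contrasts, nothing is read from that count, here and in the comparisons that follow.

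Igf2 encodes insulin-like growth factor 2, a secreted ligand of the IGF1 and insulin receptors. Its level at day 1 was 0.78, 0.55 and 0.58 FPKM in replicates 1 to 3 of siCtrl and 0.23, 0.21 and 0.28 in siPRMT1, resting on 164, 59 and 61 counts and on 27, 28 and 34. All siPRMT1 libraries lay below all siCtrl libraries. The log2 fold change was -1.47 (SE 0.21), 2.78-fold lower, which ranked 7 from the lowest of all genes tested. It ran from -1.60 to -1.27 as each library was left out, was -1.56 without siCtrl replicate 3, and lost its call only without siPRMT1 replicate 2, at -1.40.

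H19, a noncoding RNA expressed from the maternal chromosome with enhancers that Igf2 uses on the paternal one, was at 3.93, 4.14 and 5.38 FPKM in siCtrl. The siPRMT1 libraries, at 1.82, 1.80 and 1.84 FPKM, lay close together and below every siCtrl library. The log2 fold change was -1.34 (SE 0.14), rank 10 from the lowest, and -1.20 without siCtrl replicate 3, the highest of the siCtrl libraries. Mest, a paternally expressed enzyme of the alpha/beta-hydrolase family, was at 7.03, 7.91 and 8.04 FPKM in siCtrl and at 4.70, 3.94 and 4.67 in siPRMT1. The groups did not overlap, and the log2 fold change was -0.83 (SE 0.10), or -0.80 without siCtrl replicate 3.

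Exons of Mest share 913 bases, 31.5% of its exon length, with Copg2 on the opposite strand, and the strand setting of the counting is not given in the sources used here. Without it, reads of Mest and Copg2 in those bases cannot be told apart. Copg2, a coatomer subunit with 38864 counts over the 12 libraries against 9276 for Mest, was at 36.1 ± 0.206 FPKM in siCtrl and 27.6 ± 1.02 in siPRMT1 at day 1 (n = 3). Its log2 fold change was -0.44 (SE 0.063, adjusted p = 0.0080 in edgeR's quasi-likelihood test), under the fold threshold. Other overlaps were small: 98 bases of Igf2 with Igf2os (69 counts in all), and 865 bases of Peg3 with Peg3os (0 counts).

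The other genes differed less at day 1. Igf2r, the receptor that carries IGF2 to lysosomes for breakdown, was at 104, 104 and 117 FPKM in siCtrl and at 89.0, 88.1 and 80.0 in siPRMT1. The groups did not overlap, but the log2 fold change of -0.38 (SE 0.069), or -0.33 without siCtrl replicate 3, was under the fold threshold. Ndn, a MAGE family protein that restrains proliferation, had a log2 fold change of -0.30 (SE 0.12) with overlapping groups, and -0.16 without siCtrl replicate 3, where it was highest at 29.4 FPKM. Grb10, an adaptor that binds and dampens the insulin and IGF1 receptors, was at 0.92, 0.83 and 0.97 FPKM in siCtrl and 1.09, 1.08 and 1.09 in siPRMT1. All siPRMT1 libraries were higher, by 0.21 on the log2 scale (SE 0.11), or 0.25 without siCtrl replicate 3, which was not called. Peg3, a zinc finger protein, and Peg10, a protein derived from a retrotransposon, had log2 fold changes of -0.06 (SE 0.15) and 0.04 (SE 0.062), or -0.22 and 0.02 without siCtrl replicate 3. The interferon genes were higher, and the adipocyte and the preadipocyte and fibroblast markers lower, in the siPRMT1 libraries of day 1, with the sums given above, and their part in these differences was not tested.

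By estimate, the absolute knockdown log2 fold changes at day 3 were smaller than at day 1 for Igf2, H19, Mest, Igf2r and Ndn. They were larger for Grb10, Peg3 and Peg10. The test of the difference between the days, given below, called only H19, Igf2 and Mest. For knockdown at day 3, 1 of the 8 was called higher and 0 lower, against 2.84% and 3.80% of the 14039 genes tested. DESeq2 called 0 of the 8. An unadjusted edgeR p under 0.05 was found for 5. The share of all genes at that p is not given here, so nothing is read from that count. Grb10 was the gene called, at 0.71, 0.59 and 0.58 FPKM in siCtrl and 1.08, 0.85 and 0.88 in siPRMT1. Every siPRMT1 library was above every siCtrl library, with a log2 fold change of 0.57 (SE 0.15). The call was lost without siCtrl replicate 2 (0.55) or 3 (0.50) and without siPRMT1 replicate 1 (0.45).

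Igf2 at day 3 was 11.9, 11.6 and 9.47 FPKM in siCtrl and 7.78, 7.92 and 8.50 in siPRMT1. The groups still did not overlap, but the log2 fold change of -0.45 (SE 0.092) was under the threshold; it was -0.55, and called, without siCtrl replicate 3. H19 overlapped, at 15.3, 13.8 and 11.1 FPKM against 14.7, 13.6 and 15.9, with a log2 fold change of 0.13 (SE 0.11). Mest overlapped too, with siCtrl replicates 1 and 3 at 20.0 and 16.3 FPKM and replicate 2 between them, and siPRMT1 at 14.0, 17.4 and 16.3, with -0.22 (SE 0.095). Peg10 was lower in all siPRMT1 libraries, at 309, 270 and 294 FPKM against 331, 329 and 331, by a log2 fold change of only -0.19 (SE 0.071). Peg3 was higher in all siPRMT1 libraries, by 0.23 (SE 0.093), and neither was called. Igf2r and Ndn had log2 fold changes of 0.04 (SE 0.066) and 0.08 (SE 0.088), and their groups overlapped. The adipocyte sum was lower and the preadipocyte and fibroblast sum higher in siPRMT1 at day 3, with the values given above. Their part in these differences was not tested.

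**Figure D2:**
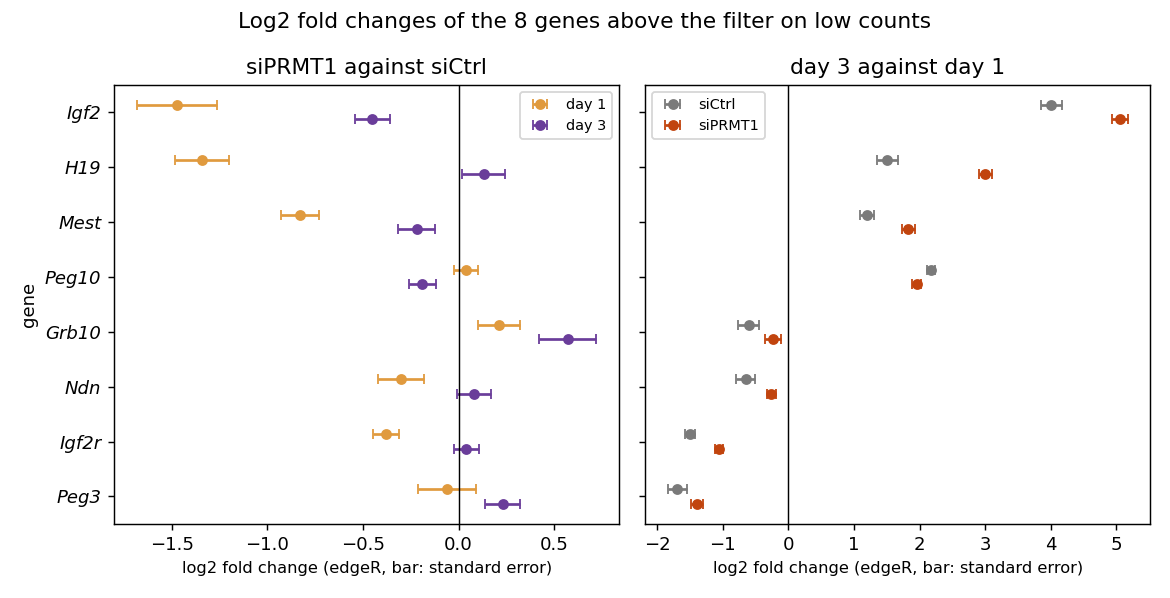
Log2 fold changes of the 8 tested genes on linear axes, with bars for the standard error, for siPRMT1 against siCtrl at day 1 and day 3 (left) and for day 3 against day 1 in siCtrl and siPRMT1 (right). Igf2 (-1.47), H19 (-1.34) and Mest (-0.83) lie far from 0 at day 1; at day 3 the same genes lie at -0.45, 0.13 and -0.22.

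The difference between the knockdown effects of the 2 days was taken from a model of all 12 libraries. It was called for 3 of the 8 genes, all higher at day 3 than at day 1: H19 at 1.49 (SE 0.20), Igf2 at 1.06 (SE 0.22) and Mest at 0.64 (SE 0.15). Over all 14612 genes, 4.77% were called in that direction and 3.47% in the other. Igf2r at 0.45 (SE 0.097) was under the fold threshold, and Ndn (0.40), Grb10 (0.38), Peg3 (0.31) and Peg10 (-0.21) were not called. Without siCtrl day 1 replicate 3, H19, Igf2 and Mest were at 1.32, 1.11 and 0.57 and still called. Without that library Igf2r was at 0.36, Ndn at 0.22, Grb10 at 0.30, Peg3 at 0.44 and Peg10 at -0.22, none of them called.

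From day 1 to day 3 of DMI, Igf2, H19, Mest and Peg10 were higher, and Igf2r, Peg3, Ndn and Grb10 lower, in the siCtrl cells. These courses share their libraries with the knockdown comparisons. In siCtrl, 4 genes were called higher and 4 lower, against 22.7% and 20.4% of the 13829 genes tested. In siPRMT1, 4 were called higher and 2 lower, against 19% and 17.4% of 14224.

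Igf2 had the widest course. Its siCtrl libraries went from 0.55 to 0.78 FPKM at day 1 to 9.47 to 11.9 at day 3, a log2 fold change of 4.01 (SE 0.16), or 16.1-fold. In siPRMT1 the log2 fold change was 5.05 (SE 0.12), or 33.2-fold, from a lower start to a lower end. H19 was 2.86-fold higher at day 3 in siCtrl (log2 fold change 1.51, SE 0.16) and 8.01-fold higher in siPRMT1 (3.00, SE 0.098). Mest was 2.30-fold higher in siCtrl and 3.55-fold in siPRMT1. With either siRNA, no library of day 3 overlapped a library of day 1 in these 3 genes, nor in Peg10, Peg3, Igf2r and Ndn. The share of all genes without such overlap is not given here, so nothing is read from it. Peg10 was 4.51-fold higher in siCtrl (log2 fold change 2.17, SE 0.062) and 3.88-fold in siPRMT1 (1.96, SE 0.067), and the 3 siCtrl libraries of day 3 differed by under 2 FPKM. Without siCtrl day 1 replicate 3, the log2 fold changes in siCtrl were 3.91 for Igf2, 1.66 for H19, 1.23 for Mest and 2.15 for Peg10.

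The genes that were lower at day 3 were led by Peg3, at 5.59, 5.54 and 3.91 FPKM on day 1 and 1.68, 1.69 and 1.52 on day 3 in siCtrl. Its log2 fold change was -1.69 (SE 0.14), or -1.85 without siCtrl day 1 replicate 3, the library where it was lowest; in siPRMT1 it was -1.39 (SE 0.086). Igf2r, the clearance receptor of IGF2, was lower at day 3, 2.84-fold in siCtrl (log2 fold change -1.50, SE 0.077; -1.45 without siCtrl day 1 replicate 3) and 2.09-fold in siPRMT1 (-1.06, SE 0.061). Ndn was lower by a log2 fold change of -0.65 (SE 0.14) in siCtrl, or -0.51 without siCtrl day 1 replicate 3, and by -0.26 (SE 0.071) in siPRMT1, not called. Grb10 had -0.60 (SE 0.16) in siCtrl, or -0.56 without siCtrl day 1 replicate 3, and -0.23 (SE 0.12) in siPRMT1, where the groups overlapped. The summed adipocyte markers were higher and the summed preadipocyte and fibroblast markers lower at day 3 than at day 1, with the values given above, and their part in these courses was not tested.

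Ratios of FPKM within a library give the balance between the genes. Per length, Igf2r exceeded Igf2 133 to 201 times in siCtrl at day 1 and 286 to 420 times in siPRMT1, and at day 3 3.27 to 4.36 times and 5.07 to 5.22 times. At both days the siPRMT1 ratios lay above all siCtrl ratios. The ratio of H19 to Igf2 was 5.04 to 9.28 in siCtrl and 6.57 to 8.57 in siPRMT1 at day 1, overlapping. At day 3 it was 1.18 to 1.29 in siCtrl and 1.72 to 1.89 in siPRMT1, without overlap. Peg10 made up 31.6 ± 2.19% of the summed FPKM of the 10 genes in siCtrl at day 1 and 76.5 ± 0.987% at day 3 (SD, n = 3), and 38.5 ± 0.862% and 74.3 ± 1.83% in siPRMT1.

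**Figure D3:**
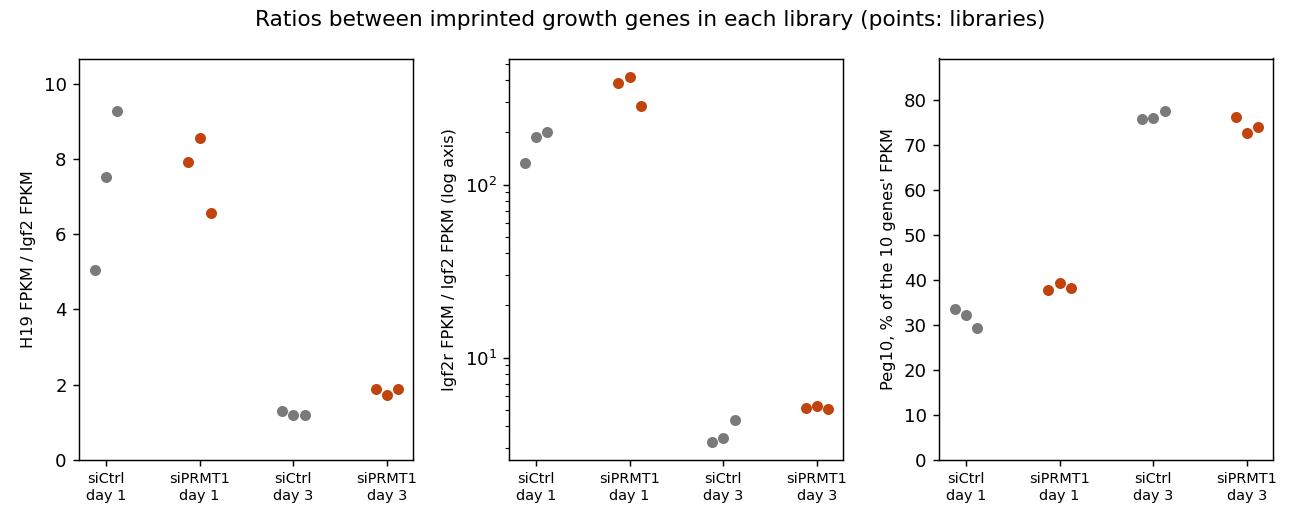
Ratio of H19 to Igf2 (linear axis), of Igf2r to Igf2 (log axis) and share of Peg10 in the summed FPKM of the 10 genes (linear axis), with 1 point per library, siCtrl in grey and siPRMT1 in orange. The ratio of H19 to Igf2 separates siCtrl (1.18 to 1.29) from siPRMT1 (1.72 to 1.89) at day 3 but not at day 1.

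The genes whose log2 level over the 12 libraries was most like that of each member were taken from 14612 genes, by Pearson's r, as a description. The libraries fall into 4 groups that the genes share. Igf2 was most like Ces1f (r = 0.997) and Fam213a (0.996), and H19 most like Apbb1ip (0.992) and Acaa2 (0.991). Mest was most like Wnk4 (0.992) and Tob1 (0.990), and Peg10 most like Sort1 and Slc18b1 (both 0.998). For the genes lower at day 3 the most alike were Peg3 with Tmem194b (0.994), Igf2r with Tgfbr2 (0.995) and Slc23a2 (0.994), Ndn with Kif1bp (0.975) and Slc43a2 (0.973), and Grb10 with Trim21 (0.955) and Cyp2c55 (0.948).

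Other imprinted genes were read from the same fits, and whether they are imprinted in these cells was not tested. Of a list of 66 such genes, 65 were in the table and 32 were tested at day 1. An unadjusted edgeR p under 0.05 was found for 9. The share of all genes at that p is not given here, so nothing is read from that count. Of the 32, edgeR called 0, against 1.95% higher and 1.61% lower over all genes tested, and DESeq2 called 0. Their median log2 fold change was -0.04, against 0.010 over all genes. Tfpi2 had the lowest value of the list at day 1, -0.85 (SE 0.30, adjusted p = 0.12 in edgeR's quasi-likelihood test), close to that of Mest. At day 3, of 36 tested, Dcn rose and Tfpi2 fell, against 2.84% called higher and 3.80% lower over all genes. Dcn, the matrix proteoglycan decorin, went from 35.2 ± 3.28 to 87.5 ± 7.08 FPKM (n = 3), a log2 fold change of 1.31 (SE 0.081, adjusted p = 2.9e-07 in edgeR's quasi-likelihood test). Tfpi2, a protease inhibitor, was low, at 1.46 ± 0.192 FPKM in siCtrl and 0.907 ± 0.176 in siPRMT1 at day 3. Its log2 fold change was -0.70 (SE 0.19, adjusted p = 0.022 in the same edgeR fit), called in 4 of 6 fits that left out a library. The median log2 fold change of the list at day 3 was 0.06, against 0.007 over all genes.

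**Figure D4:**
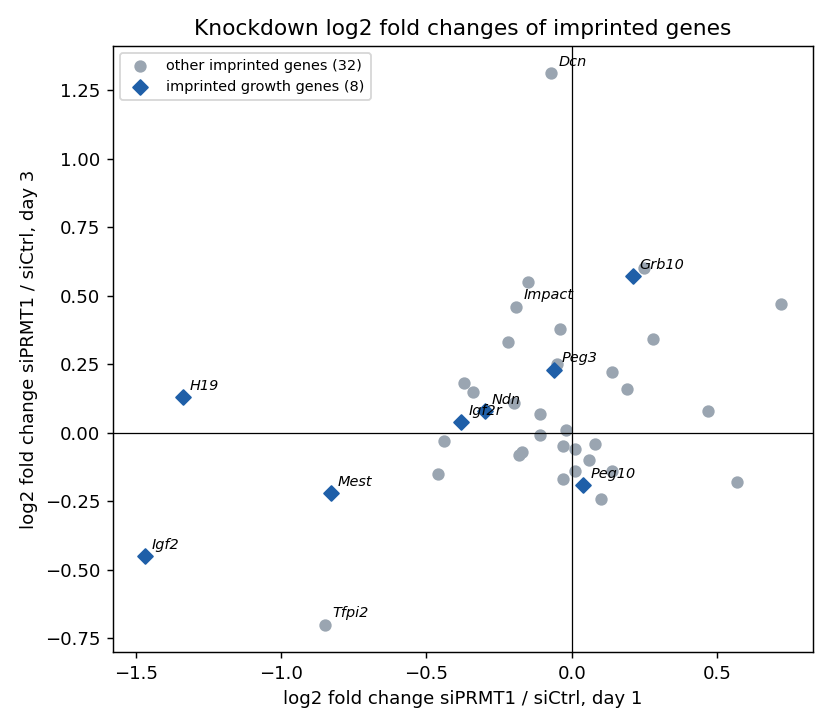
Log2 fold change of siPRMT1 against siCtrl at day 1 (horizontal) and day 3 (vertical), linear axes, for the 8 imprinted growth genes (blue diamonds) and the 32 other imprinted genes tested at both days (grey circles). Igf2, H19 and Mest lie at the left, at -1.47, -1.34 and -0.83, and Dcn at the top, at 1.31.

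Over the days, 6 of 33 other imprinted genes were called higher and 5 lower in siCtrl and 11 of 35 higher and 2 lower in siPRMT1. Over all genes tested, 22.7% were called higher and 20.4% lower in siCtrl, and 19% and 17.4% in siPRMT1. In siCtrl, Dcn (-1.83, adjusted p = 1.8e-07), the preadipocyte factor Dlk1 (-1.16, adjusted p = 3.9e-05) and Sgce (-0.87, adjusted p = 4.1e-04) fell by edgeR's test. Sgce has 101 bases between it and Peg10, which was 4.51-fold higher over the same days. Herc3 rose in siCtrl (1.30, adjusted p = 2.5e-06) and in siPRMT1 (1.62, adjusted p = 1.1e-09) in the same edgeR fits. Dlk1, neighbour of Meg3, was at 45.8 ± 8.14 FPKM in siCtrl at day 1. Meg3 had no count in any library, with the limit on reads matching both its entries given above. Between the days, the knockdown effect differed for 5 of 36, all higher at day 3, against 4.77% over all genes in that direction, led by Dcn at 1.39 (adjusted p = 3.3e-06, edgeR).

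The other receptors of IGF2 were measured beside Igf2r. Igf1r was at 5.22 ± 0.371 and 6.11 ± 0.273 FPKM in siCtrl and siPRMT1 at day 1 and at 5.31 and 5.16 at day 3 (n = 3), and it was not called in any of the 5 comparisons. Insr, the insulin receptor, rose in siCtrl from 7.46 ± 0.830 to 11.2 ± 0.195 FPKM, a log2 fold change of 0.51 that edgeR called (adjusted p = 0.0011), though in only 2 of 6 fits without 1 library. With siPRMT1 it was at 6.11 ± 0.357 FPKM at day 1 and 8.10 ± 0.432 at day 3 (n = 3). The knockdown log2 fold change was -0.34 (SE 0.10, adjusted p = 0.083 in edgeR's quasi-likelihood test) at day 1. At day 3 it was -0.47 (SE 0.071, adjusted p = 3.6e-04 in the same test), under the fold threshold. Of 14 genes tested on the IGF axis at day 1, Igfbp6 rose (0.67, adjusted p = 0.018) and Igf1 fell (-0.79, adjusted p = 0.021) in edgeR's test, in 2 and 1 of 6 fits without 1 library. The shares over all genes tested were 1.95% higher and 1.61% lower. At day 3 the protease Pappa rose, by 0.80 on the log2 scale (adjusted p = 1.3e-05, edgeR). It was the 1 gene called of 14, against 2.84% higher and 3.80% lower over all genes tested.

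Of 16 factors that place or keep imprints, 14 were tested for knockdown at each day. Zfp57 was at 0.0267 to 0.0700 FPKM on average per group. Trim28, the corepressor that ZFP57 recruits, was at 113 ± 9.81 FPKM in siCtrl and 116 ± 3.57 in siPRMT1 at day 1. Ctcf, which insulates Igf2 on the maternal chromosome, was at 34.1 ± 1.13 and 36.3 ± 0.380. At each day 4 of the 14 had an unadjusted edgeR p under 0.05. The share of all genes at that p is not given here, so nothing is read from that count. Of the 14, edgeR called 0 for knockdown at day 1 or at day 3, and DESeq2 called 0. The shares over all genes tested were 1.95% higher and 1.61% lower at day 1, and 2.84% and 3.80% at day 3. Beside such shares, 0 of 14 is not read as a result about these factors. Over the days in siCtrl, edgeR called 2 of 13 higher and 5 lower, against 22.7% and 20.4% over all genes tested. The de novo methyltransferases Dnmt3a (1.53, adjusted p = 3.6e-07) and Dnmt3b (1.19, adjusted p = 9.9e-05) were the 2 called higher by edgeR. The maintenance methyltransferase Dnmt1 fell over the same days (-0.92, adjusted p = 8.0e-06, edgeR), as did Setdb1, Arid4b, Hells and Smchd1.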

How the data were processed

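RNA of 12 libraries of 3T3-L1 cells was sequenced. Per the labels, the processing notes name cutadapt 1.11, HISAT2 2.1.0, RSEM 1.2.6 and mm10. Which tool gave the deposited counts, and with what strand setting, is not given in the sources used here. The authors deposited whole-number counts per gene, not normalized, and FPKM values. The deposited FPKM equal the counts scaled by the listed gene length and by the library's total count, within 0.0050. Levels are FPKM as deposited. Counts were tested with edgeR 4.0.16 (R 4.3.3; quasi-likelihood test, TMM, filterByExpr, Benjamini-Hochberg) on the groups compared, or on all 12 libraries for the difference between days, with calls at 0.05 (adjusted p) and 0.5 (absolute log2 fold change). Scripts were tested on simulated data. DESeq2 1.42.0, other normalization, filters and designs, and leaving out each library were alternatives.

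The members and lists were chosen with earlier results of these data known. The p-values printed for genes of the lists are therefore part of the description too and not used as support. All 10 members were named, with Prmt1, the receptors Igf1r and Insr, called genes of the other lists (at most 8 per comparison, by fold change) and the 2 genes most like each member by log2 CPM (prior count 2). Some items that the rule names are not reported here. Copg2, Trim28, Ctcf and Zfp57 are named outside that rule, chosen after their values were seen. Positions are those of RefSeq on GRCm38.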

Additional observations from a re-analysis of the deposited data

Results flagged for a closer look

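The difference between the knockdown effects of day 1 and day 3, on the log2 scale and from the model of all 12 libraries, drew attention to 8 imprinted genes. H19 had 1.49, from -1.34 at day 1 to 0.13 at day 3. Igf2 had 1.06, from -1.47 to -0.45, and Mest 0.64, from -0.83 to -0.22. These 3 were chosen with such values in view, so no p is given. Of the other imprinted genes, Dcn had 1.39 (edgeR adjusted p = 3.3e-06) and Impact, a regulator of translation, 0.67 (edgeR adjusted p = 0.0091). Peg13 and Sgce had 0.57 each (edgeR adjusted p = 0.017 and 0.031), and Slc38a4, an amino acid transporter, 0.51 (edgeR adjusted p = 0.010). Sgce was called in 5, Slc38a4 in 7 and Peg13 in 11 of the 12 fits that left out a library. These 5 other imprinted genes were the ones of their list called for this difference. Their p restates that choice and is not used as support.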

How the results depend on the processing

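Of 520 log2 fold changes of the imprinted growth genes under other settings, 515 moved by less than the spread between replicates, 5 moved by more and 0 changed direction while called. With no fold threshold, calls were 1040 for knockdown at day 1, 2313 at day 3 and 9014 for the siPRMT1 course; those among other imprinted genes were 4, 5 and 21, and 2 of the 8 growth genes were called at day 3. DESeq2 called 0 of the 8 and 1 other imprinted gene at day 3. With no filter, 18 other imprinted genes were called over the siCtrl course. Numbers shared by libraries of different groups did not pair them, since same-number correlations ran below 0.1 for at least 1 number in every comparison, and not every library correlated best with its own number; with a replicate block, 1 other imprinted gene was called at day 1 in place of 0, and no call of a growth gene changed.

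Leaving out 1 library gave 123 (without siPRMT1 day 1 replicate 3) to 873 calls (without siCtrl day 1 replicate 3) for knockdown at day 1, against 487, and 813 to 1907, without the same libraries, for the difference between days, against 1204. Among other imprinted genes these fits called 0 to 2 at day 1 (2 without siCtrl day 1 replicate 3), 1 to 3 at day 3 (1 without siCtrl day 3 replicate 3) and 3 to 6 for the difference between days (3 without siCtrl day 3 replicate 2). Of the growth genes they called 0 to 1 at day 3. The gene was Igf2 without siCtrl day 3 replicate 3, and Grb10 in the other fits with a call. The cause of these changes was not tested. Depth limits Plagl1, with at most 10 counts per library, and Igf2 at day 1 rests on 27 to 164. Meg3 had 0, which is not put down to depth, since the counting of reads matching both its entries is not given.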
